A study of Arabidopsis thaliana with 12 samples.

Results

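The aquaporins are the membrane channels through which plants move water and small uncharged solutes. The 35 aquaporin genes of Arabidopsis thaliana were taken by their gene identifiers, 13 PIP, 10 TIP, 9 NIP and 3 SIP genes. No member was picked by its measured value, but the list was chosen with earlier results of these data known. Of these, 34 were listed in at least 1 of the authors' 4 deposited tables and 31 in every table, out of 24912 genes in the series. NIP4-1 was listed in 0 tables, TIP5-1 only in the root PS-NH2 table, and TIP1-3 and NIP4-2 were missing from the leaf PS-SO3H table. Genes are written with a hyphen (PIP2-1), as most protein descriptions in the authors' deposited tables have them.

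Transcripts were sequenced from root and leaf of wild-type Col seedlings aged 10 days. The treated groups grew on MS medium with PS-NH2 or PS-SO3H nanoplastics at 50 ug/ml, polystyrene particles with amino or sulfonic acid groups as their names give them, and the control groups grew on the same medium without particles. With 2 libraries in each of the 6 groups there were 12 in all, and nothing in the labels says whether these came from separate plantings or pooled plants, so p-values measure only the spread between libraries. Each table sets 1 particle against control in 1 tissue and holds, for every gene, the fitted level of both groups and the log2 fold change (treated over control) with its p-value and adjusted p, but no value per library.

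Levels are reads scaled by library size factors, and they are divided by gene length only where given per kilobase. Level cut-offs, marker sums and shares of the column total use levels not divided by length. Each fold change is given with a standard error (SE), worked back from its size and its deposited p-value. For members at a level of 200 or more, its median was 0.0974 (25 members) with PS-NH2 and 0.101 (25 members) with PS-SO3H in root, and 0.124 (20 members) with PS-NH2 and 0.140 (20 members) with PS-SO3H in leaf. An adjusted p below 0.05 in the authors' deposited table counted as a change (higher or lower). Read depth per library is unknown, and whether libraries of 2 groups overlap cannot be seen. In whole organs, fewer cells of a type and less RNA per cell cannot be told apart.

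PIP proteins (plasma membrane intrinsic proteins) sit mainly in the plasma membrane and carry much of the water that crosses root and leaf cells. PIP2 proteins are water channels on their own, and PIP1 proteins largely reach the plasma membrane by assembling with PIP2 partners. TIP proteins (tonoplast intrinsic proteins) sit in the vacuolar membrane and pass water and, for several members, ammonia, urea or hydrogen peroxide. NIP proteins pass metalloids such as boric and arsenious acid, and SIP proteins reside in the endoplasmic reticulum.

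An aquaporin pore is lined by a pair of short loops that each carry the residues Asn-Pro-Ala or a variant of them. All 35 coding sequences of the TAIR10.1 RefSeq annotation held at least 2 stretches encoding Asn-Pro followed by another residue. At least 2 of them ended in an alanine codon in 13 of 13 PIP, 10 of 10 TIP, 4 of 9 NIP and 0 of 3 SIP genes. The stretches below are coding strand, 5′ to 3′, with the 3 codons of the box in capitals. They are shown because the subfamilies that carried most of the transcript (PIP and TIP) share 1 form of the box, while NIP and SIP genes vary it.
PIP2-1 (AT3G53420, chr3:19804158-19804190, minus strand): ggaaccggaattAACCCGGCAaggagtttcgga
TIP1-1 (AT2G36830, chr2:15446163-15446195, plus strand): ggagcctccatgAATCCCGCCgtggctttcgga
NIP3-1 (AT1G31885, chr1:11451662-11451694, plus strand): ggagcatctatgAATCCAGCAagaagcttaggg
NIP1-1 (AT4G19030, chr4:10421902-10421934, minus strand): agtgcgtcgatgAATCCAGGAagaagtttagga
NIP5-1 (AT4G10380, chr4:6432357-6432389, minus strand): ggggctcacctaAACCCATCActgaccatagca
NIP5-1 (AT4G10380, chr4:6431683-6431715, minus strand): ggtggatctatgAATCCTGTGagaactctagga
SIP1-1 (AT3G04090, chr3:1073804-1073836, minus strand): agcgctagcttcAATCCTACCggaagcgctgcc
The first 3 lines end in an alanine codon (GCA, GCC and GCA). NIP1-1 has a glycine codon (GGA), NIP5-1 a serine codon (TCA) in its first box and a valine codon (GTG) in its second, and SIP1-1 a threonine codon (ACC).

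Coding sequences of 1 pair of members were at least 90% identical, PIP2-2 and PIP2-3, and the next pair (NIP4-1 and NIP4-2) reached 88.0%. PIP2-2 (AT2G37170, minus strand, chr2:15613368-15615022) and PIP2-3 (AT2G37180, plus strand, chr2:15617635-15619155) lie head to head in TAIR10.1 with 2612 bases between them. Over 858 coding bases they differ at 45, the percent identity is 94.8, and the longest identical run is 242 bases. Below is a stretch of 150 coding bases with the 17 differing bases in capitals.
PIP2-3 (AT2G37180, chr2:15618287-15618436, plus strand): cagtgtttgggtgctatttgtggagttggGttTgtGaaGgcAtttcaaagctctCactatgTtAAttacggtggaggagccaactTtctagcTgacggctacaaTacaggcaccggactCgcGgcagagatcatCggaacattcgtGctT
PIP2-2 (AT2G37170, chr2:15614134-15614283, minus strand): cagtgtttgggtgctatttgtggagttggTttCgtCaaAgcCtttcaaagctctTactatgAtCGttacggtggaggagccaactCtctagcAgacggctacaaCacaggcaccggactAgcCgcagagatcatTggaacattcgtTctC
Reads from the identical runs fit both genes, and how the authors assigned such reads is not given in the sources used here. Levels of PIP2-2 and PIP2-3 are therefore uncertain relative to each other.

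Untreated root and leaf shared several of their most abundant aquaporins, while other members differed widely between the tissues. The values are a description without a test, because the tables of the tissues were normalized separately. In the authors' deposited PS-SO3H tables, 18 of 31 members were higher and 13 lower in control root than in control leaf, with 17 differing more than 2-fold. Of all 22720 genes, 15589 were higher and 7131 lower in root, and 11082 differed more than 2-fold. The median log2 ratio was 0.50 for the members and 0.53 for all genes, and 14 members lay above the ratio of the median gene.

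TIP1-2 (AT3G26520), a vacuolar water channel, had the highest control level per kilobase in both tissues, 23148 in root and 24007 in leaf. In root it was followed by PIP2-1 (AT3G53420) at 17633 per kilobase and TIP1-1 (AT2G36830) at 15457 per kilobase. In leaf the next levels per kilobase were 20674 for TIP2-1 (AT3G16240) and 14215 for PIP1-2 (AT2G45960). These abundant genes were all PIP or TIP members, and 4 of those 5 genes differed less than 2-fold between the tissues.

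A second group of genes was far higher in root. TIP2-3, a vacuolar channel for ammonia, had a control level per kilobase of 767 in root and 4.03 in leaf, a log2 ratio of 7.57. TIP4-1 had 1804 per kilobase in root and 24.8 in leaf (log2 ratio 6.19), and NIP1-1, an arsenite-permeable channel, had 2010 in root and 28.5 in leaf (log2 ratio 6.14). NIP3-1 reached 494 per kilobase in root against 6.85 in leaf, on leaf levels near the bottom of the table. Its log2 ratio of 6.10, like the other ratios here, is of levels not divided by length (502 in root and 7.32 in leaf). For NIP3-1 the deposited length differed between the tissues, 1016 bases in root and 1069 in leaf. NIP5-1, the boric acid uptake channel of roots, had 1069 per kilobase in root and 44.9 in leaf (log2 ratio 4.57). The plasma membrane channels PIP2-4 and PIP2-2 were higher in root as well, by 3.40 and 2.98 on the log2 scale.

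Few members were mainly leaf genes. PIP2-6 had a control level per kilobase of 284 in root and 4784 in leaf (log2 ratio -4.08), and TIP2-1 had 4254 in root and 20674 in leaf (log2 ratio -2.28). The tissue labels matched their defining genes. The summed level of 7 green tissue markers was 15433 in control root and 1282650 in control leaf, and that of 6 root hair markers was 5624 in control root and 63.6 in control leaf.

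**Figure D1:**
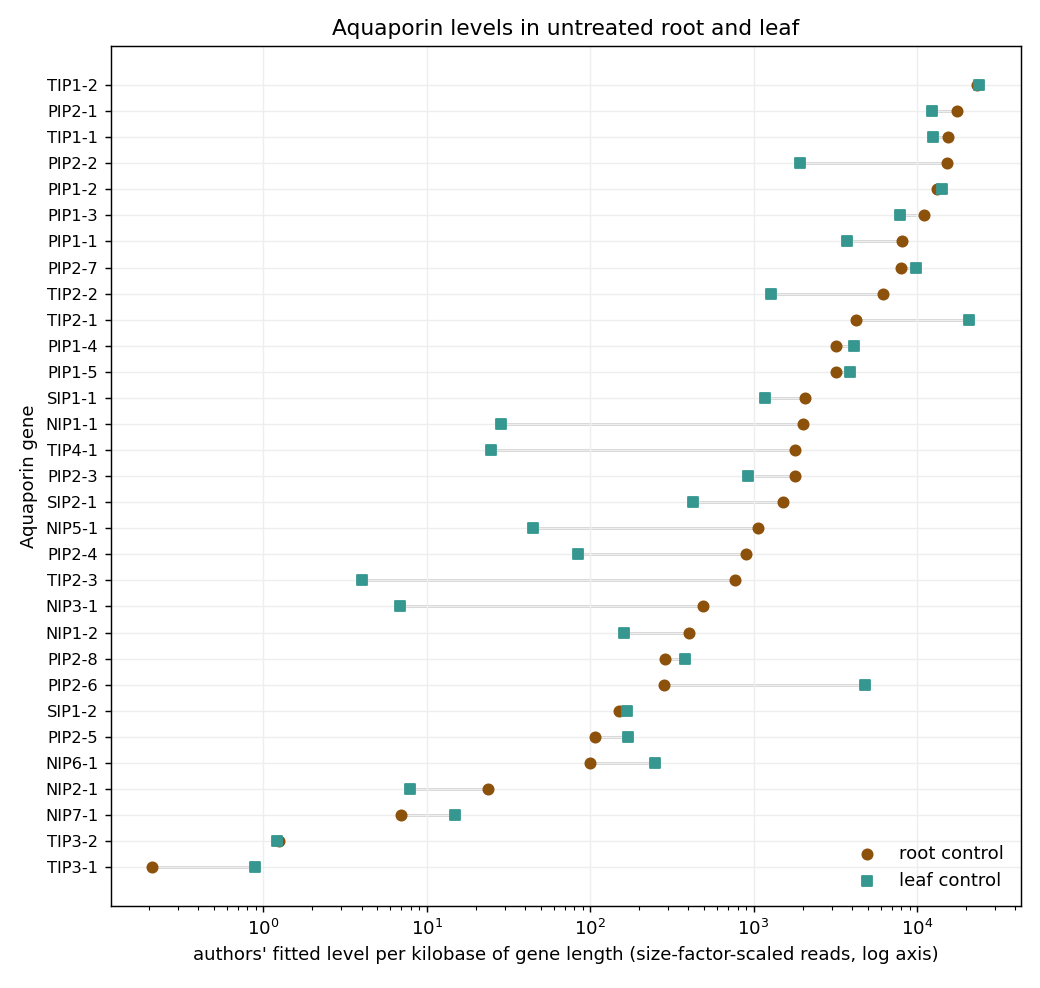
Control levels per kilobase of gene length (size-factor-scaled reads, log axis) of the 31 aquaporins listed in both PS-SO3H tables, with circles for root and squares for leaf. TIP1-2 leads in both tissues, while TIP2-3, TIP4-1, NIP1-1 and NIP3-1 have log2 ratios of 6.10 to 7.57 between root and leaf (levels not divided by length).

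In roots with PS-NH2, 9 of 34 listed aquaporins fell and 1 rose. Of all 23839 genes in the authors' deposited table, 2.7% were called lower and 1.62% higher. At a level of 1000 or more, where fold changes are measured more precisely, 7 of 18 members and 4.89% of 5251 genes were called lower. Called higher at that level were 0 of 18 members and 3.56% of genes. The median log2 fold change was -0.16 for the members. By subfamily, 5 of 13 PIP genes fell and 1 rose, and 2 of 10 TIP and 2 of 8 NIP genes fell. Of 3 SIP genes, 0 were called. An unadjusted p below 0.05 in the authors' deposited table was held by 16 of 34 members and by 2586 of 23839 genes.

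Among the plasma membrane channels, PIP1-1 (AT3G61430) had a level of 7939 with PS-NH2 and 11091 in control roots in the authors' deposited table (log2 fold change -0.48 ± 0.10 SE, adjusted p 0.000144). PIP2-1, one of the most abundant root water channels, had 16697 with PS-NH2 and 23104 in control (-0.47 ± 0.08, adjusted p 1.23e-06 in the authors' deposited table). PIP2-2, whose loss is known to lower the water permeability of root cells, had 12644 with PS-NH2 and 18678 in control (-0.56 ± 0.09, adjusted p 3.69e-07 in the authors' deposited table). These 3 abundant genes all fell, by fold changes between 1.38 and 1.48.

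PIP2-3, first described as a desiccation-responsive gene and the near-identical neighbour of PIP2-2, had 1312 with PS-NH2 and 2242 in control roots (log2 fold change -0.77 ± 0.10 SE, adjusted p 6.2e-12 in the authors' deposited table). PIP2-4 (AT5G60660), a mainly root-expressed channel, had 708 with PS-NH2 and 1259 in control (-0.83 ± 0.15, adjusted p 2.31e-06 in the same table). PIP2-5 (AT3G54820) went the other way and was the 1 member that rose, with 331 in PS-NH2 roots and 200.2 in control (0.73 ± 0.18, adjusted p 0.00258).

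Of the vacuolar channels, TIP1-1 had 12497 with PS-NH2 and 19526 in control roots (log2 fold change -0.64 ± 0.10 SE, adjusted p 7.87e-09 in the authors' deposited table). TIP2-2 (AT4G17340), a water and ammonia channel, had 5410 with PS-NH2 and 8559 in control (-0.66 ± 0.09, adjusted p 1.24e-10). TIP1-2, the most abundant aquaporin per kilobase, had 25830 with PS-NH2 and 30532 in control, which missed the threshold (-0.24 ± 0.08, adjusted p 0.0754 in the authors' deposited table). TIP1-1 and TIP2-2 thus fell, while the values of TIP1-2 pointed the same way without passing.

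NIP3-1 (AT1G31885), a metalloid channel, had 242 with PS-NH2 and 507 in control roots (log2 fold change -1.07 ± 0.17 SE, adjusted p 4.29e-08 in the authors' deposited table). Among the called aquaporins it was the 1 past a log2 change of 1, and the 1 that carries the authors' own down mark in any table. NIP5-1 (AT4G10380) had 1801 with PS-NH2 and 2371 in control (-0.40 ± 0.10, adjusted p 0.00152 in the authors' deposited table). Both of these genes were much higher in untreated root than in untreated leaf.

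Markers of other root cells moved in the same libraries, and their part in the aquaporin values was not tested. With PS-NH2 the summed level of 6 root hair markers was 3862 in treated and 5261 in control roots (0 called higher and 1, EXPA18, lower). The summed level of 5 endodermis and stele markers was 14662 in treated and 17275 in control roots (1, PHO1, called lower), and of 7 green tissue markers 20959 in treated and 15878 in control roots (2 called higher and 1 lower). The 4 root meristem markers summed to 721 in treated and 561 in control roots, with 0 called. None of these markers was listed at 0.

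In roots with PS-SO3H the balance was different, since 7 of 33 listed aquaporins rose and 3 fell. Of all 23818 genes in the authors' deposited table, 2.88% were called higher and 1.95% lower. At a level of 1000 or more, 7 of 19 members and 6.99% of 5164 genes were called higher, and 2 of 19 members and 3.31% of genes lower. The median log2 fold change of the members was 0.05. An unadjusted p below 0.05 was held by 13 of 33 members and by 2772 of 23818 genes. Of 13 PIP genes 4 rose and 1 fell, of 9 TIP genes 2 rose and 1 fell, of 8 NIP genes 1 rose and 1 fell, and of 3 SIP genes 0 were called.

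PIP1-5 (AT4G23400) had a level of 6674 with PS-SO3H and 4220 in control roots in the authors' deposited table (log2 fold change 0.66 ± 0.11 SE, adjusted p 9.29e-08). PIP2-4 had 2231 with PS-SO3H and 1294 in control (0.79 ± 0.24, adjusted p 0.0258), the opposite direction to its change with PS-NH2. PIP1-3 (AT1G01620) and PIP2-7 (AT4G35100), abundant water channels, rose by less. PIP1-3 had 18346 with PS-SO3H and 15118 in control (0.28 ± 0.08, adjusted p 0.022), and PIP2-7 had 12655 with PS-SO3H and 10276 in control (0.30 ± 0.08, adjusted p 0.00805, both in the authors' deposited table).

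The vacuolar channel TIP2-1, permeable to ammonia as well as water, had 8176 with PS-SO3H and 5058 in control roots (log2 fold change 0.69 ± 0.10 SE, adjusted p 6.1e-09 in the authors' deposited table). TIP4-1 (AT2G25810), a root vacuolar channel, had 2918 with PS-SO3H and 2118 in control (0.46 ± 0.11, adjusted p 0.00134 in the same table). NIP1-1 (AT4G19030) had 3479 with PS-SO3H and 2408 in control (0.53 ± 0.10, adjusted p 4.03e-06 in the authors' deposited table). TIP4-1 and NIP1-1 are both among the members that were far higher in untreated root than leaf.

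Lower with PS-SO3H was PIP2-3, at 1357 in treated and 2189 in control roots (log2 fold change -0.69 ± 0.10 SE, adjusted p 2.87e-09 in the authors' deposited table). TIP2-2 had 6033 in treated and 8358 in control roots (-0.47 ± 0.10, adjusted p 5.85e-05), and NIP1-2 (AT4G18910) had 349 in treated and 507 in control roots (-0.54 ± 0.15, adjusted p 0.00943). PIP2-3 and TIP2-2 were the 2 members that fell with both particles in root. The comparisons of the 2 particles share their control libraries, so this is not a pair of independent results.

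In the PS-SO3H roots the summed level of the 6 root hair markers was 9080 in treated and 5624 in control roots, with 3 (COBL9, EXPA18 and EXPA7) called higher and 0 lower. The 7 green tissue markers summed to 12623 in treated and 15433 in control roots, with 0 called higher and 3 lower. The 5 endodermis and stele markers summed to 15547 in treated and 16870 in control roots, and the 4 root meristem markers to 450 in treated and 533 in control roots, with 0 called in both lists. None of these markers was listed at 0, and their part in the aquaporin values was not tested.

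In leaves with PS-NH2, 2 of 33 listed aquaporins rose and 2 fell. Of all 23480 genes in the authors' deposited table, 3.79% were called higher and 7.4% lower, against 6.06% of the members in each direction. At a level of 1000 or more, 2 of 14 members and 10.8% of 4359 genes were called higher, and 1 of 14 members and 12.5% of genes lower. The median log2 fold change of the members was 0.10. An unadjusted p below 0.05 was held by 9 of 33 members and by 4570 of 23480 genes. The 2 that rose are abundant leaf genes. PIP2-7 had a level of 20582 with PS-NH2 and 12603 in control leaves in the authors' deposited table (log2 fold change 0.71 ± 0.11 SE, adjusted p 1.03e-08). TIP2-1 had 35432 with PS-NH2 and 24453 in control leaves (0.54 ± 0.11, adjusted p 3.04e-05 in the authors' deposited table). Both rose in PS-SO3H roots as well.

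The 2 members that fell in PS-NH2 leaves were PIP2 genes. PIP2-1 had 11764 with PS-NH2 and 15641 in control leaves (log2 fold change -0.41 ± 0.12 SE, adjusted p 0.00685 in the authors' deposited table). PIP2-3 had 825 with PS-NH2 and 1110 in control leaves (-0.43 ± 0.15, adjusted p 0.044 in the authors' deposited table). PIP2-3 was called in 3 of the 4 comparisons, lower each time, and no other member was called in more than 2. Its 2 calls in root share control libraries, and reads that also fit PIP2-2 leave its level uncertain. Beside these values, the summed level of 7 green tissue markers was 1331760 in PS-NH2 and 1270680 in control leaves (0 called higher and 2, LHCB2.1 and LHCA1, lower).

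In leaves with PS-SO3H, 0 of 31 listed aquaporins rose and 2 fell, against 1.83% of 23529 genes called higher and 2.63% called lower in the authors' deposited table. At a level of 1000 or more, 2 of 15 members and 5.96% of 4431 genes were called lower, and 0 of 15 members and 3.75% of genes higher. The median log2 fold change of the members was -0.05. An unadjusted p below 0.05 was held by 6 of 31 members and by 2906 of 23529 genes. PIP1-5 had a level of 3854 with PS-SO3H and 5190 in control leaves (log2 fold change -0.43 ± 0.12 SE, adjusted p 0.0106 in the authors' deposited table). TIP1-1 had 11523 with PS-SO3H and 15406 in control leaves (-0.42 ± 0.13, adjusted p 0.0444 in the authors' deposited table). PIP1-5 thus moved in opposite directions in PS-SO3H root and leaf. Green tissue markers had 0 of 7 called, and their summed level was 1314170 in PS-SO3H and 1282650 in control leaves.

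**Figure D2:**
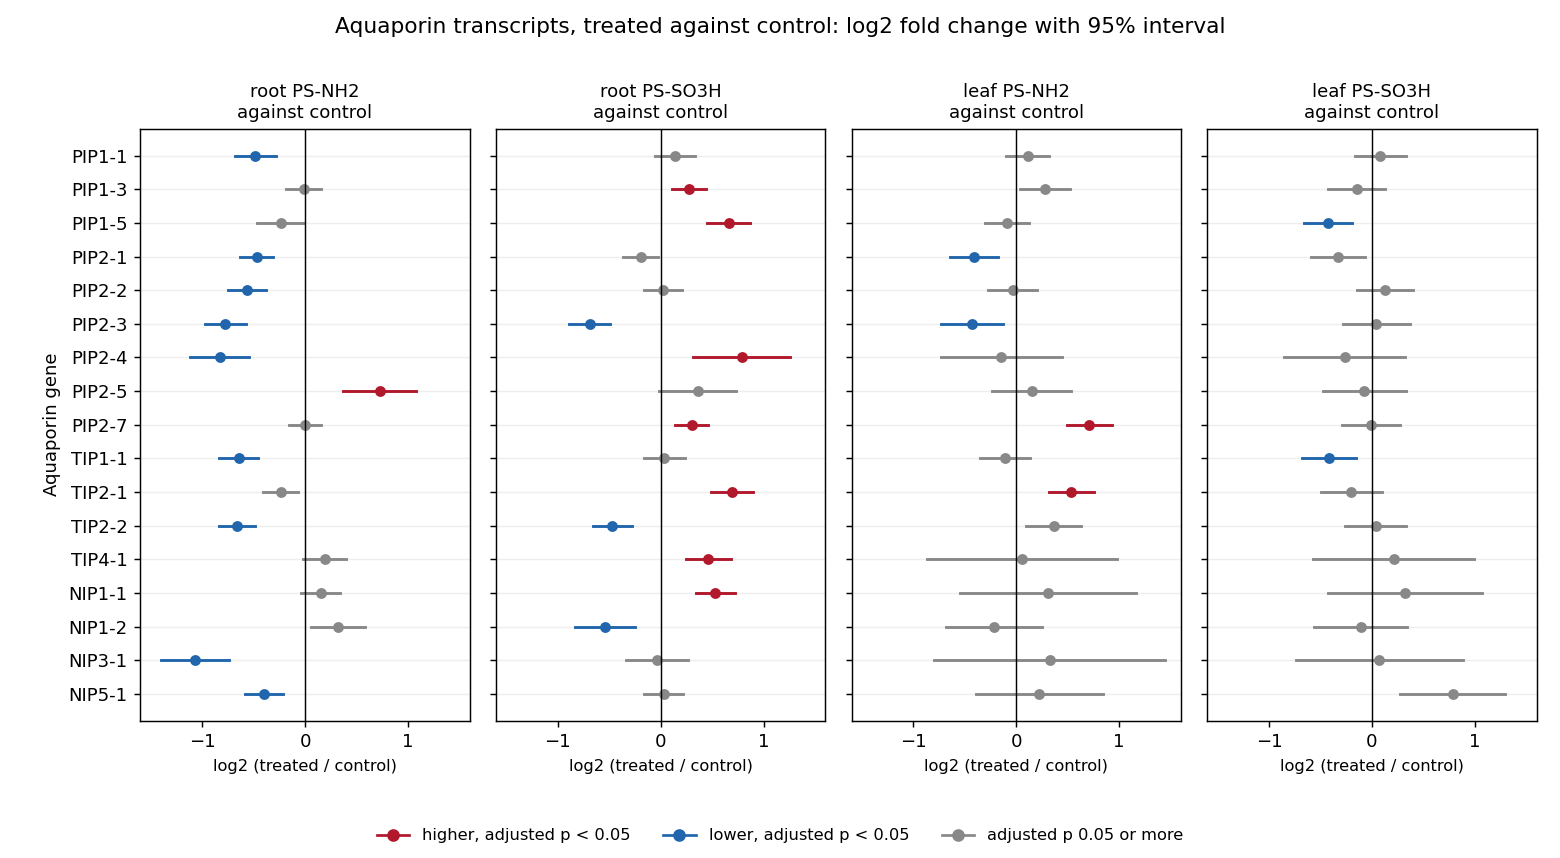
Log2 fold change (treated over control) with its 95% interval for the 17 aquaporins called in at least 1 comparison, 1 panel per comparison, with red for higher, blue for lower and grey for not called. In PS-NH2 roots 9 genes lie left of 0 in blue and PIP2-5 right of it in red, while in PS-SO3H roots 7 genes are red.

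Levels were also summed over the family as a whole, given here without a test. The sums hold called and uncalled genes alike. In PS-SO3H leaves, for example, the uncalled TIP1-2 had 27661 with PS-SO3H and 30969 in control. In the authors' deposited tables the aquaporins summed to 0.673% of the column total in PS-NH2 roots and 0.815% in control roots, and to 0.848% in PS-SO3H roots and 0.816% in control roots. In leaves the sums were 0.776% with PS-NH2 and 0.697% in control, and 0.631% with PS-SO3H and 0.695% in control. Per kilobase, the summed level with PS-NH2 in root stood at a log2 ratio of -0.29 to control, which split into -0.12 for PIP1, -0.41 for PIP2, -0.39 for TIP1 and -0.46 for TIP2 genes. NIP and SIP genes differed less, with log2 ratios of -0.07 and 0.02 for the sums per kilobase. In PS-NH2 leaves the TIP2 sum had a log2 ratio of 0.53, and TIP2-1 made up most of it.

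**Figure D3:**
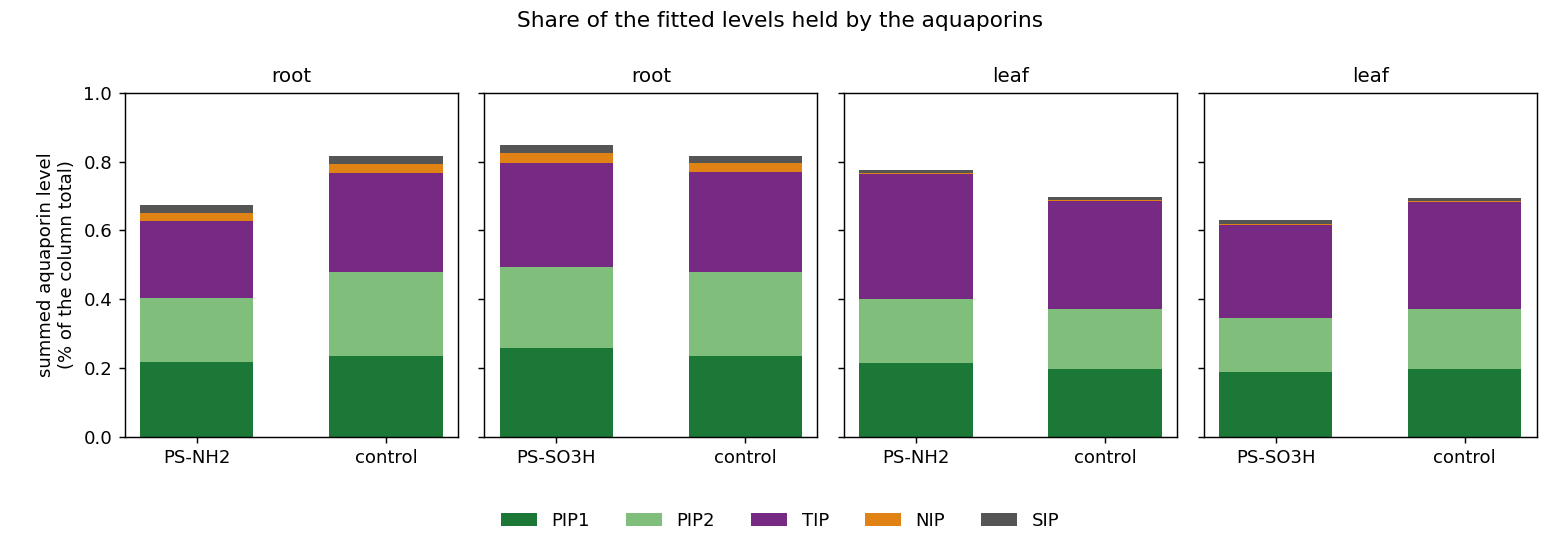
Summed aquaporin level as a percent of the column total, stacked by PIP1, PIP2, TIP, NIP and SIP genes, treated beside control in each comparison. The PS-NH2 root bar ends at 0.673%, below the 0.815% of its control, and PIP and TIP genes fill nearly all of every bar.

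Of the 35 members, 17 were called in at least 1 of the 4 comparisons with control and 18 in none. The share of all genes called in at least 1 comparison was not worked out, so these counts have no background beside them. Among the 17, 9 were called in 1 comparison, 7 in 2 and 1 in 3. The 18 include 6 genes that reached a level of 1000 in some group, namely PIP1-2, PIP1-4, PIP2-6, TIP1-2, SIP1-1 and SIP2-1. PIP1-2, one of the most abundant in both tissues, had narrow intervals around small values. Its log2 fold changes in the authors' deposited tables were 0.04 with PS-NH2 and 0.12 with PS-SO3H in root, and 0.09 with PS-NH2 and 0.00 with PS-SO3H in leaf, and its 95% intervals reached no further than 0.30 from 0.

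Another 7 of the uncalled members stayed below a level of 50 in every listed group, among them TIP1-3, TIP5-1, NIP4-2 and NIP7-1, which are known from pollen and anthers, and the seed channels TIP3-1 and TIP3-2. TIP3-1 (AT1G73190), a channel of seed storage vacuoles, had 12.01 with PS-NH2 and 4.58 in control leaves (log2 fold change 1.39 ± 0.57 SE, adjusted p 0.111 in the authors' deposited table). The same control leaves were fitted at 1.05 for TIP3-1 in the PS-SO3H table, so its control level is not firm. In those leaves the summed level of 7 seed markers was 282 with PS-NH2 and 111 in control, with 2 (CRA1 and OLEO1) called higher, and their part in the TIP3-1 value was not tested. SIP1-2 (AT5G18290) had 250.1 with PS-NH2 and 171 in control leaves, and 268 with PS-SO3H and 175 in control leaves. Neither value passed (adjusted p 0.153 and 0.198 in the authors' deposited tables).

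Particle chemistry was compared within a tissue by subtracting the PS-SO3H fold change from the PS-NH2 fold change of each gene, with an SE from the sum of both squared SEs. The p-value is a 2-sided normal one, adjusted by Benjamini-Hochberg over all genes. The particles share control libraries, so this SE is too large for the difference. In root, 8 of 33 aquaporins had a lower response to PS-NH2 than to PS-SO3H and 1 a higher one. Among 23506 genes at any level, 2.26% were called lower and 0.974% higher. For this and the differences below, no share was worked out for abundant genes alone. The variance of the shared controls is not known without values per library, so an amount was assumed (the smaller squared SE). With it taken out, which leaves the larger SE, 13 aquaporins were called lower and 2 higher, against 5.7% and 2.74% of all genes. The difference was below 0 for 27 of 33 members, with a median of -0.27 against 0.00 for all genes.

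PIP2-4 had the largest difference in root, -1.62 with a 95% interval of -2.17 to -1.06 (adjusted p 1.92e-06), since it was lower with PS-NH2 and higher with PS-SO3H. NIP3-1 differed by -1.03 (-1.47 to -0.58, adjusted p 0.000577), TIP2-1 by -0.93 (-1.19 to -0.66, adjusted p 3.2e-09) and PIP1-5 by -0.90 (-1.21 to -0.59, adjusted p 2.2e-06). TIP1-1, PIP1-1 and PIP2-2 differed by -0.68, -0.62 and -0.59 (adjusted p 0.000158, 0.00114 and 0.000869). TIP1-2 was called neither with PS-NH2 nor with PS-SO3H, but the 2 responses differed by -0.45 (-0.69 to -0.22, adjusted p 0.00857).

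NIP1-2, permeable to aluminium malate, was the exception and responded higher to PS-NH2, by 0.86 (0.47 to 1.26, adjusted p 0.00148). Its level was 657 in PS-NH2 roots with 525 in control, and 349 in PS-SO3H roots with 507 in control. For the 2 members that fell with both particles no difference was detected. It was -0.08 for PIP2-3 (95% interval -0.37 to 0.20, adjusted p 1.00) and -0.19 for TIP2-2 (-0.45 to 0.07, adjusted p 0.902).

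In leaf, 2 of 31 aquaporins responded higher to PS-NH2 than to PS-SO3H and 0 lower, where 0.583% and 2.59% of 23150 genes were called higher and lower. They were TIP2-1, with a difference of 0.73 (95% interval 0.37 to 1.10, adjusted p 0.00516), and PIP2-7, with 0.71 (0.36 to 1.07, adjusted p 0.00485). TIP2-1 therefore stood on opposite sides in the 2 tissues, higher with PS-NH2 than PS-SO3H in leaf and lower in root.

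The tissues were compared by subtracting the leaf from the root fold change for the same particle, and these tables share no library. For PS-NH2, 6 of 33 aquaporins had a lower response in root than in leaf and 0 a higher one. Of 22714 genes at any level, 1.99% were called lower and 4.59% higher, and 27 of 33 members lay below 0 with a median of -0.29. Here too, no share was worked out for abundant genes alone. TIP2-2 differed by -1.02 (95% interval -1.35 to -0.70, adjusted p 6.4e-08), TIP2-1 by -0.77 (-1.04 to -0.50, adjusted p 3.12e-06) and PIP2-7 by -0.70 (-0.97 to -0.44, adjusted p 1.53e-05). PIP1-1, TIP1-1 and PIP2-2 differed by -0.59, -0.53 and -0.53 (adjusted p 0.00209, 0.0161 and 0.0122). PIP2-1 fell in both tissues with PS-NH2, and its tissue difference was -0.06 (-0.34 to 0.22).

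For PS-SO3H, 2 of 31 aquaporins had a higher response in root than in leaf and 1 a lower one, against 1.63% and 0.902% of 22720 genes. PIP1-5 differed by 1.09 (95% interval 0.78 to 1.41, adjusted p 8.38e-09) and TIP2-1 by 0.89 (0.53 to 1.25, adjusted p 0.000172). PIP2-3 differed by -0.73 (-1.11 to -0.35, adjusted p 0.011). For PIP2-4 the difference was 1.05 with an interval of 0.30 to 1.80, and it did not pass (adjusted p 0.156).

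**Figure D4:**
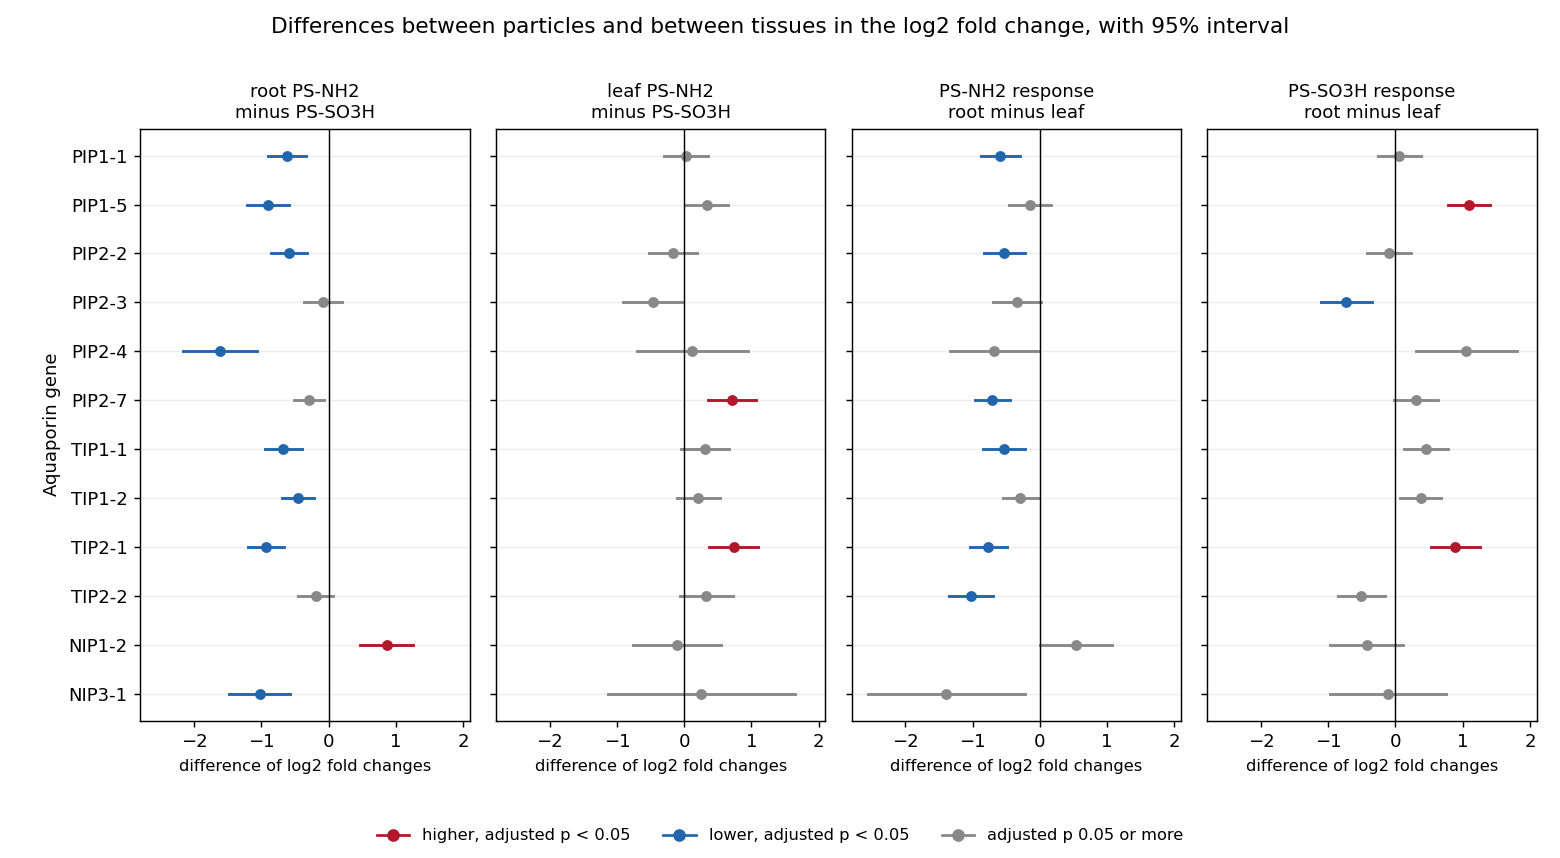
Difference of log2 fold changes with its 95% interval for the 12 aquaporins called in at least 1 of the 4 differences, with red for higher, blue for lower and grey for not called. In root, PS-NH2 minus PS-SO3H is below 0 and blue for 8 genes and red for NIP1-2, and the PS-NH2 response of 6 genes is lower in root than in leaf.

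Genes that work with the aquaporins were followed from lists of related function. Of all genes, 2.7% were called lower and 1.62% higher in PS-NH2 roots, and 1.95% and 2.88% in PS-SO3H roots. In leaves these shares were 7.4% and 3.79% with PS-NH2, and 2.63% and 1.83% with PS-SO3H. No list was tested as a set, and a count of 1 or 2 says little about a list this short. Of 13 genes for aquaporin trafficking and regulation, 0 rose and 2 fell in PS-NH2 roots, and 0 were called in PS-SO3H roots. SYP121, a plasma membrane syntaxin that binds PIP proteins, had 795 with PS-NH2 and 1069 in control roots (log2 fold change -0.43 ± 0.12 SE, adjusted p 0.00839 in the authors' deposited table). It also fell in leaves, to 1283 with PS-NH2 against 2433 in control (adjusted p 1.38e-06), and to 1856 with PS-SO3H against 2461 in control (adjusted p 0.0421). RMA1, a ubiquitin ligase of the family that holds PIP2 proteins in the endoplasmic reticulum, had 289.7 with PS-NH2 and 460 in control roots (-0.67 ± 0.18, adjusted p 0.00605). VAMP711 was the 1 member that rose, in PS-NH2 leaves (0.37 ± 0.12, adjusted p 0.0181 in the authors' deposited table), where SYP121 was the 1 that fell.

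Of 3 boron exporters, 1 fell in root with each particle and 0 were called in leaf. It was BOR1, which loads boron into the xylem, with 1074 in PS-NH2 and 1843 in control roots (log2 fold change -0.78 ± 0.10 SE, adjusted p 3.25e-11 in the authors' deposited table). It had 1178 in PS-SO3H and 1801 in control roots (-0.61 ± 0.10, adjusted p 3.69e-07). The boric acid importer NIP5-1 fell with PS-NH2 (-0.40 ± 0.10) and was at 0.03 ± 0.10 with PS-SO3H.

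Of 6 urea and ammonium transporters, 1 rose and 1 fell in root with each particle. The urea transporter DUR3 had 2811 in PS-NH2 and 1699 in control roots (adjusted p 5.13e-08 in the authors' deposited table), and AMT1;2 had 4111 in PS-NH2 and 5226 in control roots (adjusted p 0.0013). In PS-NH2 leaves DUR3 fell, to 128 against 474 in control (log2 fold change -1.89 ± 0.26 SE). Of 6 proton pump genes, 1 was called in any comparison, AHA2, which had 99050 in PS-SO3H and 81591 in control roots (0.28 ± 0.08, adjusted p 0.00879 in the authors' deposited table).

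Of 12 osmotic stress genes, 3 rose and 3 fell in PS-NH2 roots and 3 rose and 1 fell in PS-SO3H roots. The proline synthesis gene P5CS1 rose with both, to 2457 in PS-NH2 against 1498 in control roots (adjusted p 6.17e-11 in the authors' deposited table), and to 1891 in PS-SO3H against 1458 in control roots (adjusted p 0.0209). RD22, an abscisic acid and dehydration gene, had 620 in PS-NH2 and 246 in control roots (log2 fold change 1.33 ± 0.17 SE, adjusted p 6.74e-12). The potassium channel SKOR fell with both particles, by 1.14 with PS-NH2 and by 1.04 with PS-SO3H on the log2 scale. In leaf 3 rose and 1 fell with PS-NH2, and 1 rose and 0 fell with PS-SO3H.

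Short motifs were counted in the 250 bases before the annotated start of each gene, on both strands. The abscisic acid response core ACGTG was present before 1 of the 9 aquaporins that fell in PS-NH2 roots, 4 of all 35 aquaporins and 22.9% of 27443 protein-coding genes. The W-box core TTGAC, the letters bound by WRKY factors, was present before 2 of those 9, 19 of all 35 and 44.9% of all protein-coding genes. The windows of TIP1-1 (ACGTG) and PIP2-1 (TTGAC) are shown because they hold the match of each motif among the abundant genes that fell. They are written 5′ to 3′ on the gene's strand, with the match in capitals, which in both windows is the motif read from the opposite strand.
TIP1-1 (AT2G36830, chr2:15445044-15445293, plus strand): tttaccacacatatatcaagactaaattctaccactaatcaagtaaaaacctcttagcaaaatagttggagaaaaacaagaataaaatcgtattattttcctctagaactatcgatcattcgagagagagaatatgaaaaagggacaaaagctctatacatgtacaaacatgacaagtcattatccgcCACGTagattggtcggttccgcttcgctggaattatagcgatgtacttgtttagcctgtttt
PIP2-1 (AT3G53420, chr3:19805731-19805980, minus strand): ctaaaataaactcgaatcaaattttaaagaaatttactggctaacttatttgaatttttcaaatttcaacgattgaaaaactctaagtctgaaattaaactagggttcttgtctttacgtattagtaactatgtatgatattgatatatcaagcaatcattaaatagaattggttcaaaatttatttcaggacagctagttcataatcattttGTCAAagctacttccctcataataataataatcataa
The windows of PIP1-1, PIP2-2, PIP2-3, PIP2-4, TIP2-2 and NIP5-1, which also fell, hold neither run of letters. A match or its absence is a description of these letters only.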

How the data were processed

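The authors' deposited tables were used as they stand, 1 per particle and tissue. DESeq2 is named as the authors' method of comparison, per the labels on the tables. The submitters' processing notes name TAIR10 as the genome build, while aligner, counting program and versions behind these tables were not given in the sources used here. The series text also describes a small RNA library and other limits (FDR of at most 0.001 and a log2 change of at least 1), and which of these applied to the tables is unclear. Group levels are the authors' fitted signal, in reads scaled by size factors, and not read totals. Log2 fold changes are the authors' own and equal the log2 of treated over control level (largest gap 4.87e-08). The authors' deposited p-value and adjusted p were used for every comparison with control, and the adjusted p recomputed by Benjamini-Hochberg departed by over 1e-06 for 96 genes with PS-SO3H in leaf and for 0 in the other tables. The deposited gene length was used for levels per kilobase. It differed between tables for 15 members, by over 10% for 1 (NIP3-1, 1016 to 1178 bases).

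The SE was recovered as the size of the fold change over the normal quantile of the p-value. Differences were tested as given beside them, and the calculation was run on simulated data. Those data were drawn under the same normal and shared-control assumptions. They check the arithmetic and cannot show that the assumptions hold for 2 libraries per group. Counts per library were not analysed here, so the test planned for counts was replaced by the authors' own. The 35 members, 69 genes of 10 other lists and the rule for named genes (every member called in a comparison or difference, the 3 highest per kilobase in each tissue, and up to 4 called genes per other list in order of adjusted p) were chosen with earlier results of these data known. SIP1-2, TIP3-1 and PIP1-2 in leaf were named after their values were seen. Coordinates and sequences come from the RefSeq annotation of TAIR10.1, which held all 35 members, and were matched by locus only. Alternatives covered stricter limits, a filter at a mean level of 10, re-centring, shared-control variance, pseudocounts of 1 and 10, and tissue scaling. Calculations used Python 3.11.15, numpy 2.4.6, scipy 1.17.1, pandas 2.3.3, Biopython 1.88 and matplotlib 3.10.9.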

Additional observations from a re-analysis of the deposited data

Results flagged for a closer look

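The responses of 8 aquaporins, 9 pairs of gene and particle in all, differed between root and leaf by the test of the difference itself, and these are the results to look at again. With PS-NH2 the root response was lower than the leaf response by a log2 difference of -1.02 for TIP2-2, -0.77 for TIP2-1, -0.70 for PIP2-7, -0.59 for PIP1-1, -0.53 for TIP1-1 and -0.53 for PIP2-2. With PS-SO3H the root response was higher than the leaf response by 1.09 for PIP1-5 and 0.89 for TIP2-1, and the difference was -0.73 for PIP2-3. TIP2-1 differed in opposite directions with the 2 particles. With PS-NH2, TIP2-2 was called lower in root and not in leaf, and PIP2-7 higher in leaf and not in root. With PS-SO3H, PIP1-5 was called in both tissues, in opposite directions.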

How the results depend on the processing

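The counts of called aquaporins depended most on the limits. With an adjusted p of at most 0.001 and a log2 change of at least 1, and likewise by the authors' own marks, 1 member (NIP3-1) was called in PS-NH2 roots and 0 in PS-SO3H roots, PS-NH2 leaves and PS-SO3H leaves (the other called members had log2 changes under 1). The same limits left 2 members for PS-NH2 minus PS-SO3H in root and 0 in leaf, and 1 member each for the PS-NH2 and the PS-SO3H response in root minus leaf. Taking out an assumed variance of the shared controls gave 15 members for PS-NH2 minus PS-SO3H in root, 2 higher and 13 lower. Leaving out genes with a mean level under 10 gave 3 called members in PS-SO3H leaves, with NIP5-1 added as higher (0.78 ± 0.26, adjusted p 0.0600 over all genes in the authors' deposited table), and 10 for PS-NH2 minus PS-SO3H in root, where re-centring gave 10 too. Called members kept their direction, but the alternatives could not test this. Limits, the level filter and the SE leave a fold change as it is, and a pseudocount cannot turn its sign. The largest median used in re-centring was -0.00313 (PS-SO3H roots). A pseudocount of 10 moved called fold changes by at most 0.0302. The count of members higher in untreated root was 18, and 14, 17 and 19 under median scaling, upper-quartile scaling and the PS-NH2 tables.

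No paired analysis was possible because the tables hold no value per library, and for the same reason leaving out a replicate could not be run. At levels below 10 the fitted level of the same control libraries differed between the tables of a tissue by up to 2.47 on the log2 scale, against at most 0.0858 for members at 10 or more, so no level of those members is firm.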
